A study of Homo sapiens with 6 samples.

Results

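The genes described here encode the enzymes that place acetyl groups on histones, the subunits that hold those enzymes in complexes, and a set of bromodomain proteins that bind acetylated lysine. The list holds 40 genes, of 34500 genes with a matched transcript in the tables, and was drawn up by name: p300/CBP with the p160 coactivators, the SAGA and ATAC complexes, NuA4 (TIP60), the MYST complexes, the BET proteins, other bromodomain readers and the type B enzyme HAT1. The cells were RPMI 8226, a human multiple myeloma line, carrying a lentiviral short hairpin RNA against HDAC1 (shHDAC1) or against luciferase (shLuc, the control), with 3 libraries per group. Both groups had passed through the lentiviral system and 48 h of puromycin, and were grown in 10% serum. The study used 1 cell line, and the labels name 1 knockdown and 1 control, so the effect of less HDAC1 cannot be told apart from other effects of this vector. Nothing in the labels says that the libraries came from separate cultures beyond transductions made in triplicate, so the tests measure the spread between these libraries.

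Histone acetylation is set by the balance between acetyltransferases, which transfer the acetyl group of acetyl-CoA to lysine, and deacetylases such as HDAC1, which take it off. Most acetyltransferases work as the catalytic subunit of a large assembly whose other subunits choose the nucleosome, the histone and the lysine. Bromodomains are folds that bind acetyl-lysine, and they are found both in the enzymes themselves and in proteins that act on acetylated chromatin afterwards. Myeloma cells are malignant plasma cells, and several of these coactivators and readers are studied in them as drug targets.

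HDAC1 itself stood at 90.0, 85.0 and 88.9 TPM (a length-corrected share of the library, comparable between genes) in shLuc and at 31.8, 27.0 and 29.2 TPM in shHDAC1. HDAC1 fell by 1.56 on the log2 scale (SE 0.08; limma, adjusted p = 2.2e-06). All 9 plasma cell markers were called lower, and their summed level ranged from 8150 to 8961 TPM in shLuc and from 6017 to 7274 TPM in shHDAC1. Of 6 myeloid markers only ITGAM was high enough to test, and it was higher; their sum ranged from 2.96 to 3.88 TPM and from 6.91 to 11.4 TPM, with S100A8 at 0. The sums of the T cell markers (CD2 and CD3D at 0) and of the fibroblast markers (LUM at 0) did not exceed 0.833 and 2.83 TPM in any library. Whether these shifts play a part in the members' values was not tested. In bulk RNA, fewer cells with a transcript and less of it per cell cannot be told apart.

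Of the 40 members, all passed the filter of 1 TPM in at least 3 libraries, and 10 were called at an adjusted p below 0.05: 7 rose and 3 fell. Among the 11857 genes tested 27.2% were called, 16.9% higher and 10.3% lower, so the 25% of members called was close to the background. JADE2, NCOA1, SGF29, CREBBP, KAT2A, NCOA2 and BRD3 rose, and BRD7, MEAF6 and NCOA3 fell. The median log2 fold change was 0.10 over the members and 0.07 over all genes tested. The libraries of the groups did not overlap for 15 members, or 37.5%, against 43.3% of all genes tested. The summed level of the members was 1001 ± 23.6 TPM in shLuc and 1020 ± 53.0 TPM in shHDAC1 (SD, n = 3), and these ranges overlapped. The split between higher and lower moved with the scale: of all calls 62.2% were higher as deposited, 42.2% with each library centred on its median and 47.0% after quantile normalization, while 5 members were higher under both, with 4 and 3 lower.

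**Figure D1:**
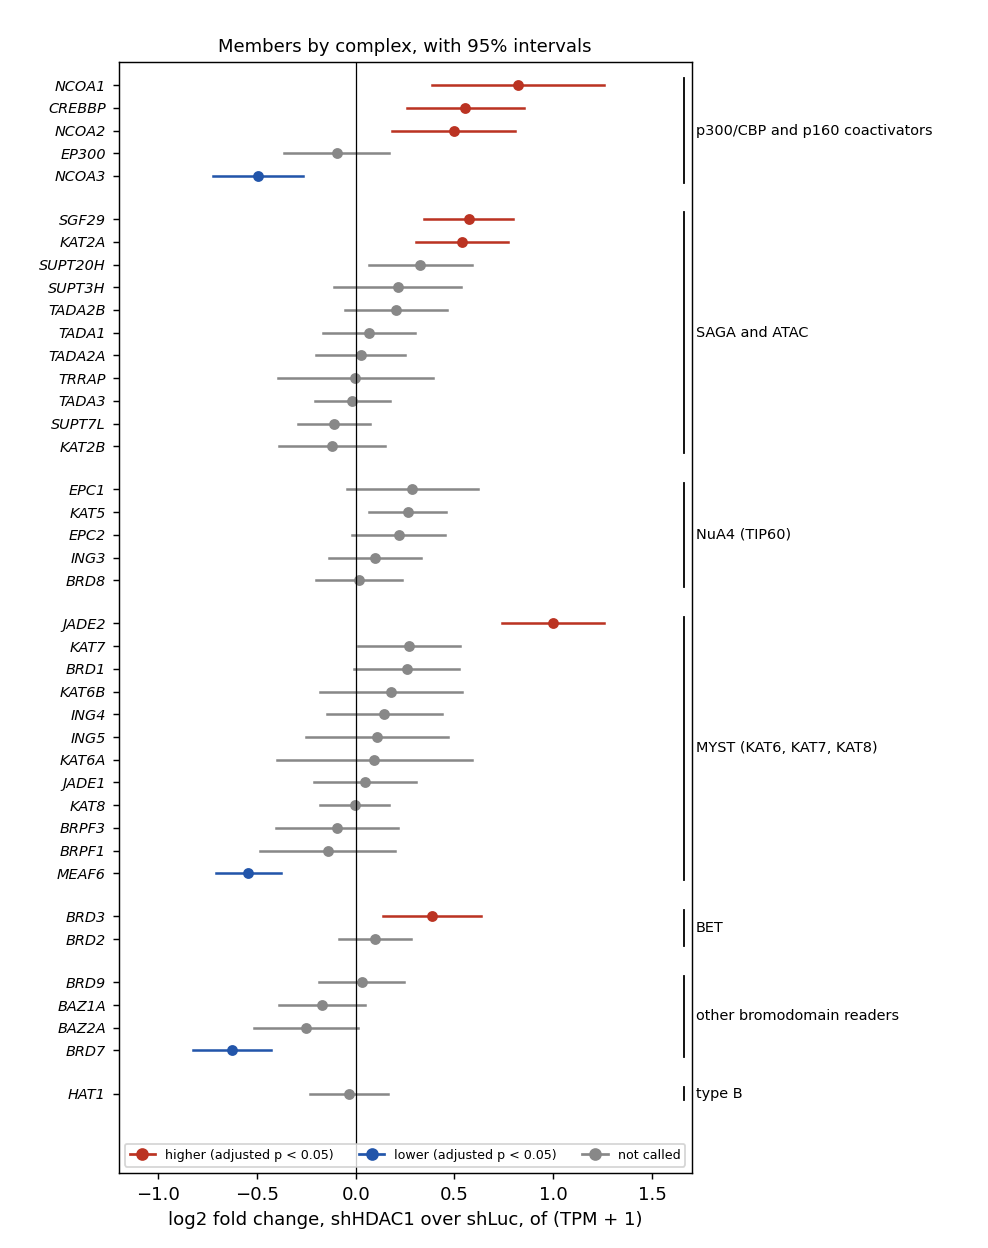
Log2 fold change of (TPM + 1), shHDAC1 over shLuc, for each of the 40 members (points) with its 95% interval (lines), grouped by complex; red and blue mark members called higher and lower. JADE2 lies farthest to the right at 1.0 and BRD7 farthest to the left at -0.62, and 30 members are not called.

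Against the 27.2% called over all genes tested, calls were made for 4 of the 5 genes of the p300/CBP and p160 group, 2 of 11 of SAGA and ATAC, 0 of 5 of NuA4, 2 of 12 of the MYST complexes, 1 of 2 BET genes and 1 of the 4 other bromodomain readers. TRRAP and MEAF6, which also belong to NuA4, were counted under SAGA and ATAC and under the MYST complexes. In shLuc the median member stood at 14.8 TPM, below the 18.5 TPM of the median gene tested. Levels ran from KAT6B at 1.1 TPM to HAT1 at 88.9 TPM, and 5 members exceeded 50 TPM: HAT1, MEAF6, BRD8, BRD7 and BAZ2A. Within the shHDAC1 group replicate 2 was the lowest of the 3 libraries for 24 members and replicate 1 was the highest for 22. The median coefficient of variation between libraries was 7.67% in shLuc and 8.92% in shHDAC1.

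**Figure D2:**
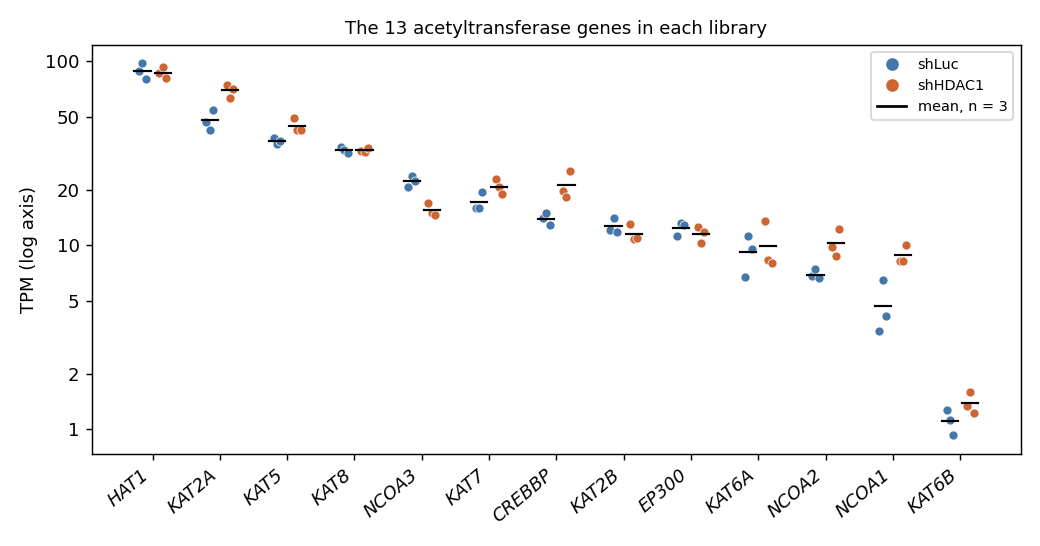
TPM of the 13 genes counted as acetyltransferases, the p160 coactivators included, in each library (points, log axis) with group means (bars, n = 3), ordered by their level in shLuc. The order runs from HAT1 near 90 TPM to KAT6B near 1 TPM; CREBBP, KAT2A, NCOA1 and NCOA2 lie higher in all shHDAC1 libraries and NCOA3 lower.

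CREBBP and EP300 encode CBP and p300, paralogous acetyltransferases that join many transcription factors to the promoter and acetylate histone H3 at enhancers. CREBBP (ENSG00000005339.14, chromosome 16, 3725054 to 3880726, minus strand, GRCh38) measured 14.0, 14.9 and 12.9 TPM in shLuc and 19.6, 18.4 and 25.4 TPM in shHDAC1. The groups did not overlap, and CREBBP rose by 0.56 ± 0.13 on the log2 scale (limma, adjusted p = 0.0129). With log2 fold changes, here and below, the value after ± is the SE of the fit. With TPM values, shares and ratios it is the SD. EP300 measured 11.2, 13.2 and 12.9 TPM against 12.6, 10.3 and 11.8 TPM. Its groups overlapped, at a log2 fold change of -0.10 with a 95% interval from -0.36 to 0.17. The CREBBP call was lost when genes of all levels were tested (adjusted p = 0.0556).

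The p160 coactivators NCOA1, NCOA2 and NCOA3 (also called SRC-1, SRC-2 and SRC-3) bind nuclear receptors and bring p300 and CBP to them. NCOA1 (ENSG00000084676.15, chromosome 2, 24491914 to 24770702, plus strand) was the lowest of these at 3.40, 6.46 and 4.14 TPM in shLuc and reached 8.22, 8.21 and 9.98 TPM in shHDAC1, a rise of 0.82 ± 0.19 (adjusted p = 0.0130). NCOA2 (ENSG00000140396.12, chromosome 8, 70109762 to 70403805, minus strand) went from 6.79, 7.40 and 6.59 TPM to 9.76, 8.73 and 12.3 TPM, a rise of 0.50 ± 0.14 (adjusted p = 0.0276). NCOA3 (ENSG00000124151.18, chromosome 20, 47501902 to 47656877, plus strand) moved the other way, from 20.6, 23.7 and 22.3 TPM to 16.9, 14.9 and 14.6 TPM, and fell by 0.50 on the log2 scale (SE 0.10, adjusted p = 0.00681). NCOA3 remained the most abundant of the family in both groups. NCOA1 lost its call when genes of all levels were tested (limma, adjusted p = 0.0744). Its log2 fold change ranged from 0.51 to 1.04 over the 14 alternatives. Part of the NCOA1 total lay outside protein-coding transcripts. These held 100, 60.6 and 91.3% of it in shLuc and 71.0, 70.4 and 54.3% in shHDAC1, with overlap. The NCOA1 call was kept with protein-coding transcripts alone. NCOA2 lost its call under 9 of 14 alternatives, including every omission of 1 library other than shHDAC1 replicate 2. Protein-coding transcripts alone were among these alternatives (adjusted p = 0.0798), and the main coding transcript NCOA2-201 stood at 4.80 and 5.07 TPM (group means).

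**Figure D3:**
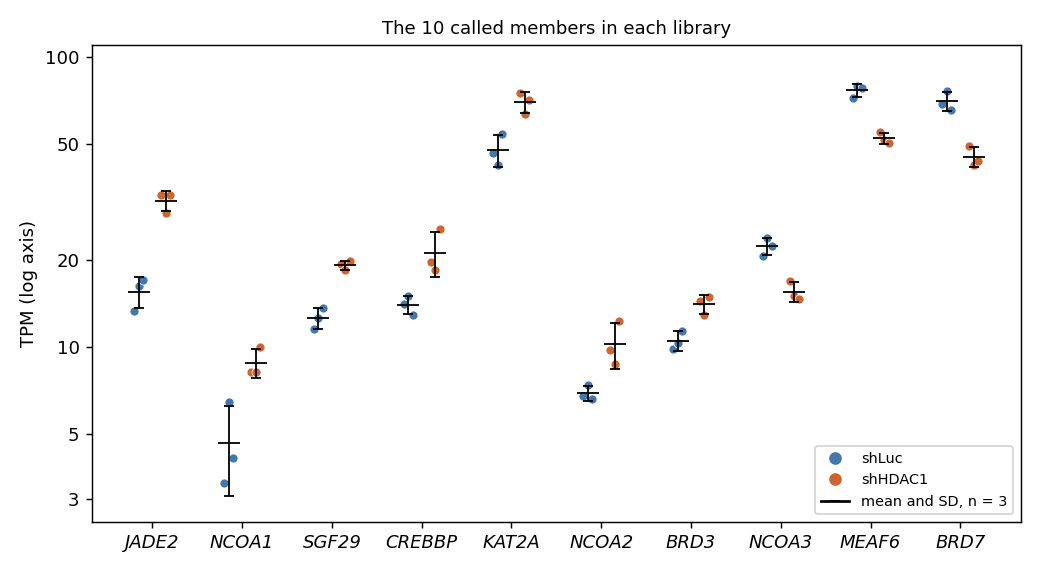
TPM of the 10 called members in each library (points, log axis) with mean and SD (n = 3), ordered by log2 fold change. In each gene the 3 shHDAC1 libraries lie wholly above (7 genes, left) or wholly below (3 genes, right) the 3 shLuc libraries.

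SAGA and ATAC share an acetyltransferase module built around KAT2A (GCN5) or its paralog KAT2B (PCAF), with TADA2A or TADA2B, TADA3 and SGF29. KAT2A (ENSG00000108773.10, chromosome 17, 42113108 to 42121358, minus strand) measured 46.6, 42.5 and 54.3 TPM in shLuc and 74.7, 63.3 and 71.2 TPM in shHDAC1, a rise of 0.54 ± 0.10 (adjusted p = 0.00515). KAT2B measured 12.1, 14.0 and 11.9 TPM against 13, 10.8 and 10.9 TPM and overlapped, with an interval from -0.39 to 0.15. KAT2A was thus the more abundant paralog in every library. SGF29 (ENSG00000176476.8, chromosome 16, 28553915 to 28591790, plus strand), whose Tudor domains bind methylated lysine 4 of histone H3, rose from 11.5, 12.6 and 13.7 TPM to 19.3, 18.4 and 19.8 TPM. Its log2 fold change was 0.57 ± 0.10 (adjusted p = 0.00327). KAT2A and SGF29 were called under each of the 14 alternatives.

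The other 9 SAGA and ATAC members were not called, and their log2 fold changes ranged from -0.12 for KAT2B to 0.33 for SUPT20H. SUPT20H, a structural subunit of SAGA, came nearest to the threshold: 7.95, 7.16 and 8.11 TPM in shLuc against 9.58, 9.34 and 11 TPM in shHDAC1, which did not overlap (adjusted p = 0.0652). The adaptor genes TADA1, TADA2A, TADA2B and TADA3 had log2 fold changes of 0.07, 0.02, 0.20 and -0.02. SUPT7L had a value of -0.11 without overlap and SUPT3H a value of 0.21 with overlap. TRRAP, the scaffold shared by SAGA and NuA4 that contacts activators, ranged from 21.5 to 37.7 TPM within shLuc. Its interval, from -0.39 to 0.39, was accordingly wide.

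NuA4 is the complex of the acetyltransferase KAT5 (TIP60), which acetylates histones H4 and H2A and acts in DNA repair. KAT5 measured 38.5, 35.6 and 36.9 TPM in shLuc and 49.3, 42.2 and 42.5 TPM in shHDAC1. The groups did not overlap, but the log2 fold change of 0.26 ± 0.09 just missed the threshold (adjusted p = 0.0505); it passed with a mean of at least 5 TPM required (0.0456) and without shHDAC1 replicate 2 (0.0485). BRD8, the bromodomain subunit, stood at 70.5 and 71.2 TPM, and ING3, which reads methylated lysine 4 of H3, at 19.4 and 20.8 TPM (group means). The scaffold genes EPC1 and EPC2 had log2 fold changes of 0.29 and 0.22, the second without overlap. All 5 values counted under this complex were positive as deposited, and none was called. BRD8 and ING3 turned negative once each library was centred on its median or quantile normalized. Of the shared subunits counted elsewhere, TRRAP had a value of -0.0019 and MEAF6, which was called lower, of -0.54.

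The MYST enzymes KAT6A, KAT6B and KAT7 (HBO1) work with scaffolds of the BRPF or JADE families, which direct them to histone H3 or H4, together with an ING protein and MEAF6. KAT8 (MOF) acetylates lysine 16 of H4 in complexes of its own. None of these enzymes was called. KAT7 measured 16.0, 15.9 and 19.4 TPM in shLuc and 22.9, 20.7 and 18.9 TPM in shHDAC1 (log2 fold change 0.27, adjusted p = 0.111). KAT8 was the steadiest, at 34.3, 32.8 and 31.8 TPM against 32.7, 32.1 and 33.8 TPM, with an interval from -0.18 to 0.17. KAT6A varied most, at 6.70, 11.3 and 9.48 TPM against 13.5, 8.26 and 8.01 TPM, and KAT6B was near the filter at 1.27, 1.12 and 0.929 TPM against 1.33, 1.59 and 1.22 TPM. For KAT6A the interval ran from -0.40 to 0.59, so changes of that size were not detectable.

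JADE2, a PHD-finger scaffold of the KAT7 complex, had the highest log2 fold change among the members. It lies on chromosome 5, 134524312 to 134583230, plus strand (ENSG00000043143.20). JADE2 measured 13.3, 16.2 and 17.0 TPM in shLuc and 33.4, 28.9 and 33.5 TPM in shHDAC1. The lowest shHDAC1 library thus lay well above the highest control. JADE2 rose by 1.0 ± 0.11 (adjusted p = 0.000326), a call that held under each of the 14 alternatives. Its paralog JADE1 measured 36.0, 32.2 and 32.3 TPM against 39.9, 35.4 and 29.4 TPM, overlapping, with an interval from -0.21 to 0.31. JADE3, another gene of the family outside the list of members, rose by 0.48 ± 0.13 (10.1 to 14.5 TPM on average, adjusted p = 0.0250).

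JADE2 transcripts start at more than 1 place, and 2 RefSeq promoter windows (GRCh38.p14, plus strand, 250 bases before to 50 after the start) match starts of transcripts in the tables. They are shown because transcripts from both starts were more abundant in shHDAC1. The upstream window, chr5:134525420-134525719, holds the start of JADE2-201, JADE2-202 and JADE2-210, whose summed level was 7.35, 7.20 and 6.90 TPM in shLuc and 13.8, 11.5 and 13.4 TPM in shHDAC1. The downstream window, chr5:134525858-134526157, holds the start of JADE2-203, at 4.96, 5.58 and 6.04 TPM against 14.6, 13.2 and 13.6 TPM. Capitals mark a match to GAAA, any pair of bases and GAAA, the core of the interferon-stimulated response element (ISRE), searched on both strands.
JADE2 upstream start: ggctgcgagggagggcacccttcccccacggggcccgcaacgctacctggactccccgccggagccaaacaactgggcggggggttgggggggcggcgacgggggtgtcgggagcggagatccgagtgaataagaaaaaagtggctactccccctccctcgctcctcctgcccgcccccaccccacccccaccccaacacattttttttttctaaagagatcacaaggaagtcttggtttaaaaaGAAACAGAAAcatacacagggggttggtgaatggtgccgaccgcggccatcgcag
JADE2 downstream start: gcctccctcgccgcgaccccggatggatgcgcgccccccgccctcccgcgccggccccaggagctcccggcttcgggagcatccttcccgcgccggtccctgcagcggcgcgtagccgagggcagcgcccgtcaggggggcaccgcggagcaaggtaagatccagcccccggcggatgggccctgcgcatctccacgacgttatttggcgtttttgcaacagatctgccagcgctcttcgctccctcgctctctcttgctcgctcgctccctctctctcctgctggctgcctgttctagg
The match spans the annotated upstream start, and the downstream window held none of 8 motifs searched. Those were the ISRE core, the E-box (CACGTG), the CRE of cAMP signalling, the ETS core (CCGGAAG), the CCAAT box, the sterol response element, and the NRF1 and YY1 motifs. The ISRE core occurs in 3.57% of the 35116 RefSeq promoter windows, a share of windows and not of genes. Of the 34 members with an entry, which can have several windows, 2 hold it in any of theirs, JADE2 and SUPT3H. Of the 356 tested genes with that match 33.4% were called higher, against 16.2% of those without. JADE2 is among these genes and its windows were singled out after its values were seen, so the difference is no independent support. A role of the motif was not tested. Other RefSeq windows of JADE2 match the E-box, ETS and CCAAT motifs. Genes with these were called higher in 16.7%, 13.8% and 16.4% of cases, against 16.9%, 17.8% and 17.2% without. A match of these letters is a description of the window only.

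MEAF6, a small subunit shared by the MYST complexes and NuA4, fell. It lies on chromosome 1, 37492575 to 37514774, minus strand (ENSG00000163875.15), and was the second most abundant member in shLuc. MEAF6 measured 72.2, 79.3 and 78.3 TPM in shLuc and 54.8, 51.6 and 50.4 TPM in shHDAC1, and fell by 0.54 on the log2 scale (SE 0.07, adjusted p = 0.000785). The groups were far apart relative to their spread, and the call held under each of the 14 alternatives. The other MYST members were not called: BRD1, BRPF1 and BRPF3, the scaffolds of KAT6A, KAT6B and KAT7, had log2 fold changes of 0.26, -0.14 and -0.09, and ING4 and ING5 of 0.15 and 0.11. BRD1 was without overlap, at 10.3 to 10.6 TPM in shLuc and 11.2 to 14.6 TPM in shHDAC1.

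BET proteins carry paired bromodomains that bind acetylated histone tails and help RNA polymerase II into elongation. BRD2 measured 45.2, 46.2 and 47.2 TPM in shLuc and 54.1, 46.3 and 48.6 TPM in shHDAC1; the groups overlapped, and the interval ran from -0.08 to 0.28. BRD3 (ENSG00000169925.16, chromosome 9, 134030305 to 134068535, minus strand) measured 9.80, 10.3 and 11.4 TPM against 14.4, 12.8 and 14.9 TPM, a rise of 0.39 ± 0.11 (adjusted p = 0.0290). The BRD3 call was lost under 8 of 14 alternatives, both rescalings among them.

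BRD7 and BRD9 are the bromodomain subunits of 2 alternative forms of the SWI/SNF remodelling complex, PBAF and ncBAF. BRD7 (ENSG00000166164.15, chromosome 16, 50313487 to 50368934, minus strand) measured 68.9, 76.1 and 65.6 TPM in shLuc and 49.3, 42.5 and 43.7 TPM in shHDAC1. It fell by 0.62 on the log2 scale (SE 0.09, adjusted p = 0.000978), without overlap and under each of the 14 alternatives. BRD9 measured 28.1 to 28.6 TPM against 25.8 to 31.9 TPM, with an interval from -0.18 to 0.25. The BAZ genes encode subunits of ISWI remodelling complexes; BAZ1A had a log2 fold change of -0.17 and BAZ2A of -0.25, both with overlap. BAZ2A ranged from 44.1 to 62.9 TPM within shHDAC1, and it was called lower without shHDAC1 replicate 1 (adjusted p = 0.0377) or with each library centred on its median (0.0347). HAT1, which acetylates new histone H4 in the cytoplasm before it is assembled, measured 88.5, 97.7 and 80.5 TPM against 86.2, 93.0 and 81.2 TPM. The groups overlapped, with an interval from -0.23 to 0.17.

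Ratios of related genes, taken within each library on (TPM + 1), depend less on a scale factor common to the library than the levels do, although the added 1 keeps them from being free of it, most of all for low genes. Of 12 such ratios, 6 did not overlap between the groups; no share over other gene pairs was computed, and of single genes 43.3% did not overlap. The log2 ratio of EP300 to CREBBP went from -0.16 ± 0.15 to -0.81 ± 0.23 (SD, n = 3). As gene totals, CREBBP exceeded EP300 in every shHDAC1 library, and by less in shLuc replicates 1 and 2, while the genes were level in shLuc replicate 3. Forms annotated as retained introns held 37.1, 38.9 and 20.8% of CREBBP in shLuc and 20.2, 30.4 and 31.6% in shHDAC1. EP300 has 1 listed transcript, which is protein-coding, so the order of the totals need not be that of the coding transcripts. That of JADE1 to JADE2 went from 1.07 ± 0.26 to 0.12 ± 0.26, and that of BRD7 to BRD9 from 1.27 ± 0.11 to 0.62 ± 0.08. The ratio of NCOA1 to NCOA3 moved most, from -2.07 ± 0.30 to -0.75 ± 0.23. That pair joins a gene called higher to a gene called lower, and NCOA2 was not paired. Each of the 6 ratios without overlap holds a called member, so they restate the gene-level calls. The ratio of KAT2A to KAT2B went from 1.83 ± 0.29 to 2.49 ± 0.09, and that of BRD2 to BRD3 from 2.04 ± 0.07 to 1.75 ± 0.10. The ratios KAT6A to KAT6B, EPC1 to EPC2, ING4 to ING5, BRPF1 to BRPF3, TADA2A to TADA2B and BAZ1A to BAZ2A overlapped. With 3 libraries against 3 the exact two-sided permutation test cannot go below p = 0.1, which each of the 6 reached (0.2 after Benjamini-Hochberg adjustment over the 12 ratios), so none could pass the threshold.

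**Figure D4:**
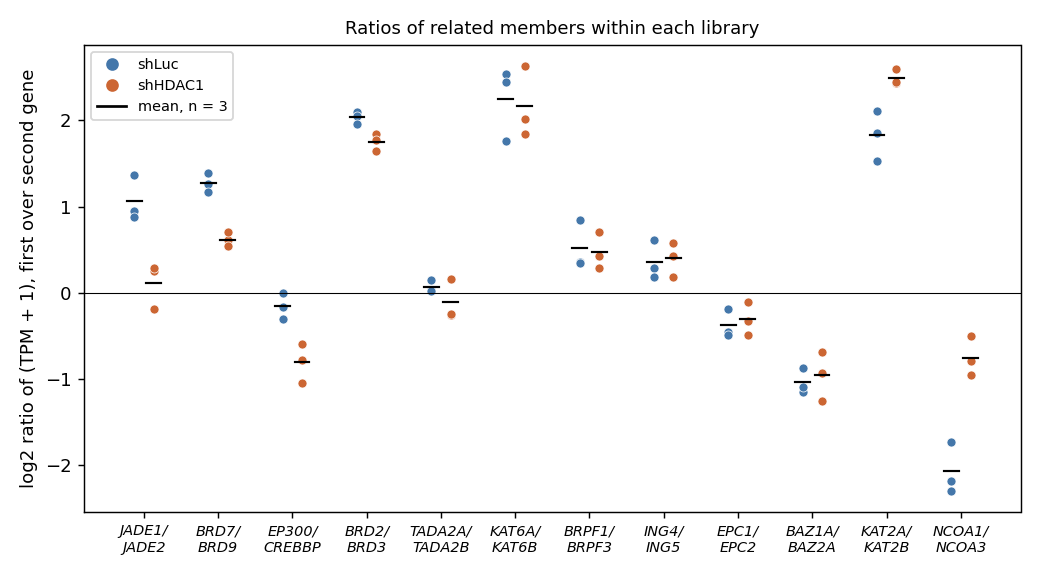
Log2 ratio of (TPM + 1) between related members in each library (points) with group means (bars, n = 3), ordered by the difference between the groups. JADE1/JADE2, BRD7/BRD9, EP300/CREBBP and BRD2/BRD3 lie lower in all shHDAC1 libraries, KAT2A/KAT2B and NCOA1/NCOA3 lie higher, and the other 6 overlap.

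The tables list 406 transcripts of the members, and 150 passed the filter. Of these 3 were called, or 2%, against 3.33% of the 39716 transcripts tested. JADE2-203, a protein-coding transcript, rose by 1.18 on the log2 scale (adjusted p = 0.0105). BRD7-202, the protein-coding transcript that carries most of BRD7, fell from 45.3, 48.7 and 44.3 TPM to 30.2, 28.3 and 23.7 TPM (log2 fold change -0.73, adjusted p = 0.0286). BAZ2A-210, also protein-coding, fell from 4.90, 4.91 and 6.37 TPM to 2.09, 1.39 and 2.31 TPM (-1.13, adjusted p = 0.0486), while the main BAZ2A-214 stood at 23.1 and 22.1 TPM. All 3 calls were lost without shLuc replicate 1, without shHDAC1 replicate 1 and without shHDAC1 replicate 3, and 1 member transcript was called without shLuc replicate 2 or 3. The transcript values are estimates that divide shared reads between overlapping transcripts, by a method not given in the sources used here.

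KAT2A was divided between a coding and a non-productive form. It was among the 6 members with under 50% of their TPM in protein-coding transcripts in shLuc. KAT2A-201, protein-coding, measured 22.9, 21.2 and 24.8 TPM in shLuc and 42.0, 31.7 and 42.0 TPM in shHDAC1 (log2 fold change 0.71, adjusted p = 0.0548). KAT2A-202, annotated as a target of nonsense-mediated decay, measured 18.5, 17.3 and 20.2 TPM against 25.2, 20.3 and 19.9 TPM, with overlap. The share of KAT2A held by KAT2A-201 was 48.3% ± 2.29 in shLuc and 55.1% ± 4.58 in shHDAC1 (SD, n = 3). For JADE2 the share of JADE2-203 was 35.7% ± 1.44 and 43.3% ± 2.63. For NCOA2 the share of NCOA2-201 was 69.1% ± 5.32 and 50.5% ± 9.15. Forms annotated as retained introns held 6.55% and 16.4% of NCOA2, without overlap. The share of the leading transcript could be tested in 39 members, and 0 were called by limma, against 0% of the 10779 genes tested; at an unadjusted p below 0.05 there were 5 members and 7.51% of genes. Among the members 30 overlap a gene on the opposite strand, BRD7 with ADCY7, NCOA3 with SULF2 and BRD3 with BRD3OS among them, and the labels do not say whether the counting used strand. JADE2, KAT2A and MEAF6 overlap no gene on the opposite strand.

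The 7-base sequence GACAAAC was looked for in 3' UTRs because earlier work on these data had met it in genes with lower values. It occurs in the annotated 3' UTR of 941 of the 10988 genes searched, or 8.56%, of which 21.6% were called lower, against 9.81% of the genes without it. This difference is no independent support, since the same data had led to the sequence. The members that hold it are BRPF3, EPC1, ING3, JADE1, KAT6A and MEAF6. Of these 6 only MEAF6 was called. The sites of 5, with GACAAAC in capitals and 11 flanking bases where the transcript has them (GENCODE 29, GRCh38), read as follows.
BRPF3: gaatgctgactGACAAACcaacacaactt
EPC1: cattacatgttGACAAACtaa
ING3: caatacaagatGACAAACtttaaacaaga
JADE1: attttgaaatgGACAAACttgtcattaca
MEAF6: ctaaatgtggtGACAAACaagtcatttct
The MEAF6 match lies at chr1:37493936-37493942 on the minus strand and that of JADE1 at chr4:128874922-128874928 on the plus strand. MEAF6 transcripts that hold the match summed to 45.5 ± 4.63 TPM in shLuc and 30.5 ± 1.6 TPM in shHDAC1 (67.0% of the control level), and those with no annotated match to 31.1 ± 5.41 and 21.7 ± 3.52 TPM (70%). The second set includes processed transcripts such as MEAF6-209 and MEAF6-206, which have no annotated 3' UTR and were not searched. In JADE1 the forms with the match measured 12.8, 16.8 and 14.1 TPM against 10.5, 10.5 and 11 TPM, without overlap. Its forms with no annotated match measured 23.2, 15.5 and 18.2 TPM against 29.4, 24.9 and 18.3 TPM, with overlap. Elsewhere the forms with the match went the other way, to 122% of the control level in KAT6A and 110% in EPC1, both without overlap. In BRPF3 they stood at 103% and in ING3 at 67.9%, both with overlap. No test was made of these splits. A second sequence met in that work, ATCGTCA, occurs in the 3' UTR of 1.89% of genes and of 0 members.

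The other subunits, readers and suppliers of the same machinery form lists of 70 genes, of which 68 were tested. Of these 13 rose and 10 fell, or 33.8% called against 27.2% of all genes tested, with a median log2 fold change of 0.11. Among the other SAGA and ATAC subunits 4 of 14 rose and 2 fell: TAF12, WDR5 and ATXN7L3 had values of 0.38, 0.29 and 0.44, and DR1, a histone-fold subunit of ATAC, and YEATS2, its reader of acylated lysine, of -0.67 and -0.30. Among the other NuA4 subunits 1 of 11 rose and 1 fell. MORF4L1 (MRG15), a chromodomain protein that binds methylated lysine 36 of H3, fell from 573, 605 and 558 TPM to 298, 291 and 300.4 TPM (log2 fold change -0.96 ± 0.05, adjusted p = 3.5e-06), and RUVBL1 had a value of 0.18. Every shHDAC1 library of MORF4L1 lay far below every control library, with no call among the 5 members counted under NuA4.

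Of 11 other MYST complex subunits 1 rose (JADE3) and 3 fell: MSL3, OGT and MSL1, at -0.37, -0.33 and -0.29, of which MSL3 and MSL1 belong to a KAT8 complex and OGT attaches N-acetylglucosamine to proteins. Of 24 other bromodomain genes tested 6 rose and 1 fell. SP110, SP140 and SP100, related proteins of nuclear bodies that are inducible by interferon, rose by 1.09 ± 0.10, 0.71 ± 0.09 and 0.57 ± 0.09 (adjusted p = 6.8e-05, 0.000454 and 0.00137). ATAD2, a bromodomain ATPase, fell from 38.6 ± 2.97 to 22.2 ± 1.57 TPM (SD). Its log2 fold change was -0.77 ± 0.09 (SE, limma, adjusted p = 0.000449). Neither YEATS-domain reader, MLLT1 or MLLT3, was called. Of 6 genes that supply acetyl-CoA 3 fell: PDHB, a subunit of pyruvate dehydrogenase, at -0.90 ± 0.08, the acetyl-CoA synthetase ACSS2 at -0.48 ± 0.10 and the ATP-citrate lyase ACLY at -0.29 ± 0.07. CRAT, the carnitine acetyltransferase, rose by 0.84 ± 0.22 (adjusted p = 0.0209) from a low level of 1.37 TPM. Several of these calls were close to the threshold: OGT, MSL1, RUVBL1 and YEATS2 lost theirs under 8 of the alternatives, MSL3 under 6, JADE3 and CRAT under 5, PDHB, ACSS2, ATXN7L3 and WDR5 under 1, and MORF4L1, DR1, TAF12, SP110, SP140, SP100, ATAD2 and ACLY under 0.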

How the data were processed

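RNA was sequenced from RPMI 8226 cells with shLuc or shHDAC1 (3 libraries each). The deposited values are TPM for Ensembl transcripts, per the file headers, in a separate table for each library that sums to 1000000. STAR, DESeq and the build hg19 are named, with no versions or roles, per the submitters' processing notes. The sources used here do not name the program behind the TPM values, and since these keep no record of reads, depth is unknown.

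Transcripts were matched by Ensembl ID to GENCODE 29 (GRCh38; 159239 of 173259, 91.9%) and summed per gene. Coordinates are those of GENCODE 29. Genes that reached 1 TPM in 3 libraries or more were tested with limma 3.58.1 (R 4.3.3, trend) on log2(TPM + 1), with Benjamini-Hochberg adjustment over all 11857 genes; a call is an adjusted p below 0.05, and fold changes on this scale understate those of low genes. Transcripts and shares of the leading transcript were tested likewise, and ratios by exact permutation. The fits were checked on simulated data. Promoter windows are RefSeq's.

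The members and all lists were chosen with earlier results of these data known. The rule for values in each library took called members, the 13 catalytic genes and the 3 members nearest the threshold, to which JADE1 and BRD2 were added as paralogs of called members; from other lists, up to 3 genes per direction with the smallest p. The JADE2 promoters were singled out after their values were seen.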

Additional observations from a re-analysis of the deposited data

How the results depend on the processing

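The log2 fold changes of the members were recomputed under 14 alternatives (13 for KAT6B and SUPT3H, which a mean of at least 5 TPM left out), and the transcript counts and ratios under those that apply: centring on the median or quantile normalization, 2 other filters, pseudocounts of 0.1 and 5, protein-coding transcripts only, the replicate number as a block, and each library left out. The 10 called members kept their direction in all 140 such values and lost their call in 19 of them; JADE2, KAT2A, SGF29, NCOA3, MEAF6 and BRD7 lost none. With no filter on low values 3 members were called higher in place of 7. Calls higher over all genes were 1336 with centring in place of 2007, and from 1295 (without shHDAC1 replicate 1) to 1981 with 1 library left out; there 5 to 8 members were called higher, and 0 to 2 member transcripts were called. Protein-coding transcripts alone called ING4 higher (0.51, adjusted p = 0.0336). Same-numbered libraries deviated together only weakly (r = -0.10, 0.18 and 0.03 for numbers 1, 2 and 3), and the labels link them by number only. Whether they shared handling cannot be told from 3 libraries per group. With the replicate block, limma called 8 members higher (KAT5 added, adjusted p = 0.0395) and 3 lower, and 0 member transcripts. The replicate block and leave-one-out for the share of the leading transcript were added after the data were seen, and gave 0 members throughout.

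Only values of members without a call changed sign. Centring gave log2 fold changes of -0.082 for BRD8, -0.068 for BRD9, -0.00055 for ING3, -0.051 for JADE1, -0.0027 for KAT6A, -0.032 for TADA1 and -0.073 for TADA2A. Quantile normalization gave -0.022 for BRD8, -0.053 for BRD9, -0.0052 for ING3, -0.051 for ING5, -0.020 for JADE1, -0.046 for KAT6A, -0.034 for TADA1 and -0.099 for TADA2A. Protein-coding transcripts alone gave -0.16 for BRD8, -0.15 for JADE1, -0.20 for TADA2A and 0.0057 for TRRAP. With 1 library left out the values ranged from -0.059 to 0.085 for BRD8, -0.035 to 0.11 for BRD9, -0.10 to 0.038 for HAT1, -0.016 to 0.26 for ING5, -0.053 to 0.16 for JADE1, -0.13 to 0.25 for KAT6A, -0.029 to 0.023 for KAT8, -0.022 to 0.077 for TADA2A, -0.051 to 0.037 for TADA3 and -0.18 to 0.21 for TRRAP. The causes of the changes with scale were not tested. Without counts, the precision behind a single TPM value is unknown, and 3 libraries per group limit what was detectable: the interval of a member without a call lay within 0.5 either way for 22 of 30.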
